A study of Mus musculus with 5 samples.

Results

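The Affymetrix whole-transcript arrays of this study carry probe sets for microRNA genes, and these genes, apart from the miR-302 cluster, were compared between mouse embryonic stem (ES) cells with and without Dicer. Members were the genes whose probe set has exactly 1 gene symbol in the platform annotation and whose symbol starts with Mir and a digit or with Mirlet7. Mir302a to Mir302d and Mir367 were left out. A gene read by several probe sets was represented by the brightest of them on average. This gave 295 members among 19938 named genes. Of these, 291 were microRNA genes and 4 were longer transcripts that carry microRNAs and match the same symbol pattern (Mir17hg, Mir99ahg, Mir100hg and Mir670hg). Another 61 probe sets pair a microRNA symbol with a second symbol and were not used. The Mir290 to Mir295 cluster and Mir92-1 had no probe set of their own symbol alone and were not analysed here.

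The cells were wild-type ES cells (3 arrays) and Dicer-deficient ES cells (2 arrays) from asynchronous cultures. Both were grown without feeders in equal parts of serum with LIF and of N2B27 with 2i, the serum-free medium with a pair of kinase inhibitors that holds ES cells in an undifferentiated state. Total RNA was labelled with biotin by the whole-transcript protocol. The sources used here name no Dicer allele, cell line or clone, and they call the arrays biological replicates without saying how many independent lines they stand for, so the p-values measure the spread between these cultures.

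MicroRNAs are cut from long primary transcripts. Drosha and its partner Dgcr8 release a hairpin in the nucleus, exportin 5 carries it to the cytoplasm, and Dicer cuts the hairpin to the mature microRNA, which an Argonaute protein holds and pairs through its seed (the bases next to its 5′ end) to target mRNAs. In ES cells the best-known microRNAs are those of the miR-302, miR-17 and miR-290 families, while let-7 is held back by Lin28 until the cells differentiate. A probe set for a microRNA gene reads RNA of that locus; how much of its signal came from the primary transcript, the hairpin or the mature microRNA was not tested.

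Mature sequences are given in RNA letters, 5′ to 3′, from RefSeq (mouse build GRCm38.p6), with the seed, bases 2 to 8, in capitals. The table used held 266 of the members, 265 of them with a mature sequence. The first set holds products of the 4 members that passed the test described below. The pair miR-362-3p and miR-329-3p is shown because both have the seed ACACACC and their genes lie on opposite sides of 0. The miR-25 and miR-92a sequences are shown because they share the seed AUUGCAC with miR-363-3p.
miR-135b-3p: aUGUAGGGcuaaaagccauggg
miR-362-5p: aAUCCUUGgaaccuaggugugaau
miR-362-3p: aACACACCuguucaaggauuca
miR-329-3p: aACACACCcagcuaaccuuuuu
miR-27a-3p: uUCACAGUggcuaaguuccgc
miR-363-3p: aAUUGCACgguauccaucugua
miR-25-3p: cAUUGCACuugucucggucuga
miR-92a-3p: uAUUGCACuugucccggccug

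The second set holds products of Mir487b and Mir382, the chromosome 12 members with the lowest adjusted p, then a pair of the miR-17 family and a pair of the let-7 family, which stand for the best-known proliferation and differentiation microRNAs of stem cells.
miR-487b-5p: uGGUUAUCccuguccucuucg
miR-382-5p: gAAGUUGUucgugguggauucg
miR-17-5p: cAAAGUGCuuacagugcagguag
miR-20a-5p: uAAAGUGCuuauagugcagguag
let-7a-5p: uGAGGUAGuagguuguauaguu
let-7i-5p: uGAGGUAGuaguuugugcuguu

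The labels were checked first. Dicer1, the gene named in them, had a log2 signal of 8.84, 8.82 and 8.85 in the wild-type arrays and of 7.20 and 6.84 in the Dicer-deficient arrays, a difference of -1.82 (SE 0.112, limma adjusted p = 0.000129). All 8 ES cell markers examined lay above the array median on every array, with a median signal of 11.12. Esrrb (-0.72) and Tdgf1 (-0.70) were lower in the Dicer-deficient arrays, and the other 6 were not called; 5 of the 8 lay above 0, with a median difference of 0.05. None of 7 fibroblast markers and none of 5 primitive endoderm markers passed the test. Of 4 neural markers Pax6 (0.96) was higher, and Sox1 (-0.17), Neurog2 (-0.04) and Tubb3 (-0.36, adjusted p = 0.138) were not called. Of 2 mesodermal markers Kdr (0.84) was higher and Mixl1 (0.01) was not called. The part of such differences in the values below was not tested. In these bulk samples fewer cells of a type and less RNA per cell cannot be told apart. The median signal of an array lay between 5.39 and 5.45 and its lower quartile between 4.14 and 4.18.

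The microRNA genes were nearly level between the genotypes. A gene was called when limma's two-sided test of Dicer-deficient against wild-type arrays gave a Benjamini-Hochberg adjusted p under 0.05 over all 19938 genes. Of the 295 members, 4 were called higher (Mir135b, Mir362, Mir27a and Mir363) and none lower, 1.36% of the members in either direction. Over all genes 17.1% were called, 8.48% higher and 8.6% lower. At an unadjusted p under 0.05 there were 17 members, 10 higher and 7 lower, or 5.76% beside 27.8% of all genes.

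The size of the differences was given next, first over all members and then by signal level. The median log2 difference, Dicer-deficient minus wild type, was -0.002 over the members and 0.008 over all genes. The members ranged from -0.60 to 0.48 and their differences had a standard deviation of 0.132, beside 0.345 for all genes. No member differed by 2-fold or more, as 2.3% of all genes did. The difference lay above 0 for 143 members (51.8% of all genes did) and below 0 for 148 (47.8% of all genes did). The standard errors were alike, with a median of 0.0911 for members and 0.0935 for all genes. For 269 members (91.2%) the 95% confidence interval of the difference lay within 0.5 log2 units on either side of 0, as it did for 74.2% of all genes, so larger differences were outside the interval for most members. For all 295 members it lay within 1 log2 unit.

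These comparisons changed with signal level. At or below the lower quartile of all probe sets, which holds 142 of the members, the standard deviation of the differences was 0.112 for members and 0.105 for all genes. The intervals within 0.5 made up 95.1% there for members and 96.7% for all genes. Above the median the standard deviation was 0.148 for 77 members and 0.434 for all genes. The smaller spread of the members was thus seen among the brighter probe sets, and not among the dimmest. In the class above the median the members were the dimmer, with a median signal of 6.22 beside 7.28 for all genes.

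**Figure D1:**
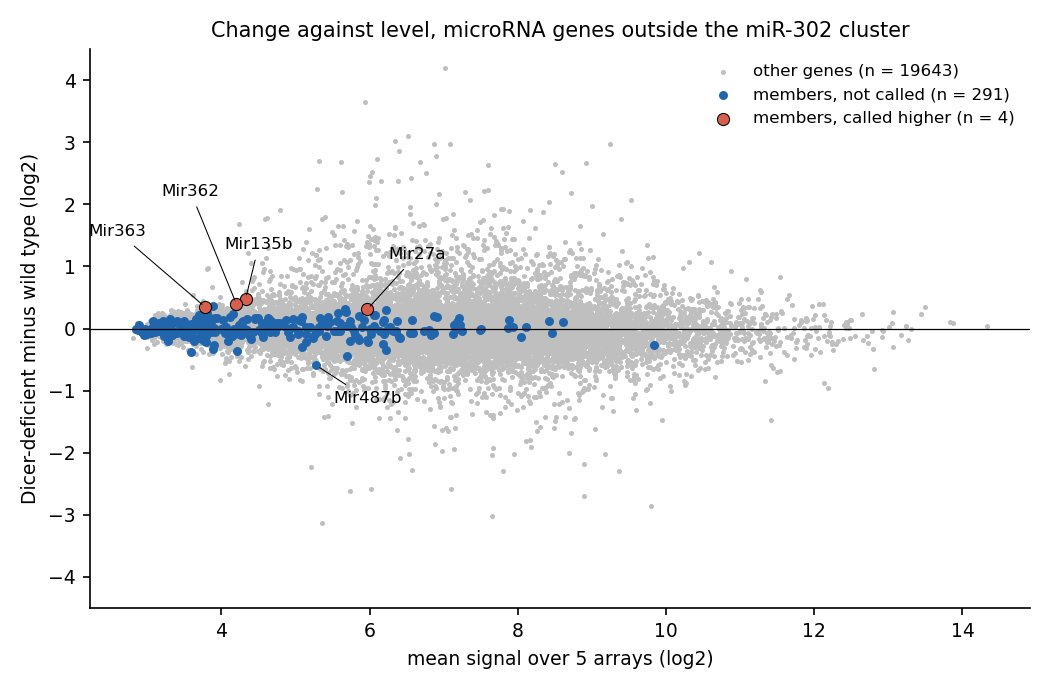
Log2 difference (Dicer-deficient minus wild type, vertical axis) against the mean log2 signal over 5 arrays (horizontal axis) for 19643 other genes (grey), 291 members not called (blue) and 4 members called higher (red). The members lie between -0.60 and 0.48 at every signal level, within the spread of the other genes.

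The arrays were also compared directly. For 48 members (16.3%) both Dicer-deficient values lay outside the range of the 3 wild-type values, which was so for 39.9% of all genes. Both values lay above the range for 22 members (7.46%, beside 20% of all genes) and below it for 26 (8.81%, beside 19.9%). With 3 arrays against 2, the exact permutation test has 10 splits and cannot give a two-sided p below 0.1, so single genes were judged by limma alone.

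Many members were dim. The median signal of a member was 4.24 and that of a named gene 5.77, and 127 members lay below the array's lower quartile on all 5 arrays. The deposited table holds no detection call, so whether these probe sets were above background was not tested and the results are given as log2 differences with no fold. Only 69 members lay above the array median on all 5 arrays. Signals of different probe sets are not amounts of RNA, so a bright probe set does not mean an abundant microRNA.

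Genes were then set beside others in the same class of signal. Of the members whose mean lay at or below the lower quartile of all probe sets, 1 of 142 was called (0.704%), and 0.613% of all genes at that level were. Between the lower quartile and the median 2 of 76 members were called (2.63%, beside 5.2% of all genes). Above the median 1 of 77 members was called (1.3%), where 27.9% of all genes were called. The share of members called thus lay near the share of other dim genes, and below the share of all genes among the brighter probe sets. The class above the median was not matched in level, with a median signal of 6.22 for members and 7.28 for all genes. The part of level in that difference in shares was not tested.

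**Figure D2:**
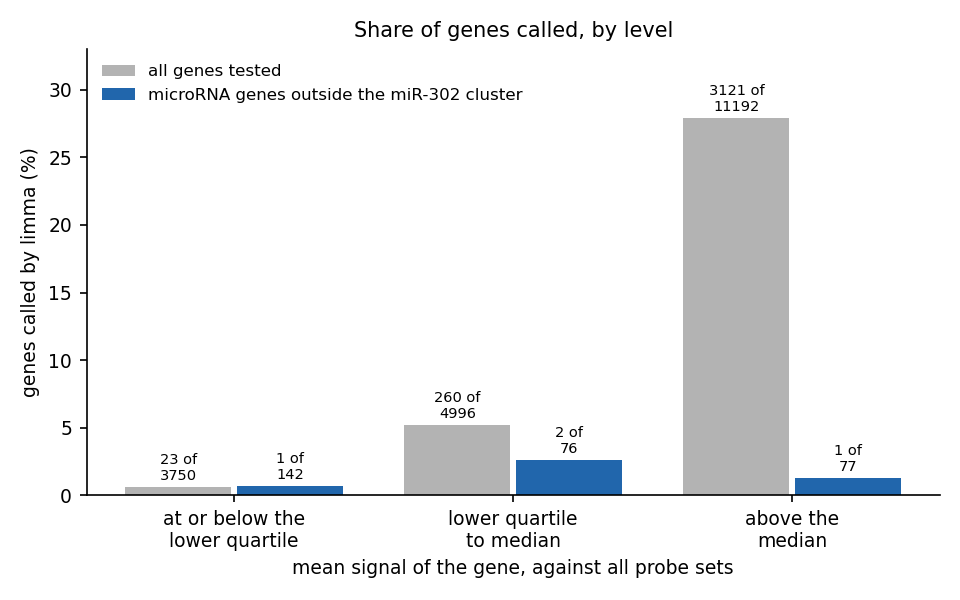
Percent of genes called by limma (vertical axis, from 0) among all genes tested (grey) and among the members (blue), in 3 classes of mean signal set by the quartiles of all probe sets; counts stand above the bars. Above the median 27.9% of all genes and 1.3% of the members were called.

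The member with the lowest adjusted p was Mir135b. Its hairpin lies in Lemd1 on the same strand of chromosome 1, where the printed miR-135b-3p occupies chr1:132198142-132198163. Its signal was 4.15, 4.11 and 4.15 in the wild-type arrays (mean 4.14 ± 0.0231, SD, n = 3) and 4.65 and 4.58 in the Dicer-deficient arrays (mean 4.62 ± 0.0495, SD, n = 2). The groups were apart by more than the spread within either, with a difference of 0.48 (SE 0.0753, adjusted p = 0.00474). The host Lemd1 was dim and was not called, at 3.51, 3.46 and 3.50 against 3.55 and 3.49 (0.03, adjusted p = 0.869). Without the first Dicer-deficient array the adjusted p of Mir135b was 0.0601, and it stayed under 0.05 with any other array left out.

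Mir362 belongs to a cluster of microRNA genes within Clcn5, a chloride transporter gene of the X chromosome; miR-362-5p occupies chrX:7242019-7242042 on the minus strand. Its signal was 4.14, 3.95 and 4.05 in wild type (mean 4.05 ± 0.095, SD, n = 3) and 4.46 and 4.42 without Dicer (mean 4.44 ± 0.0283, SD, n = 2). Both Dicer-deficient values lay above all wild-type values, by 0.39 on average (SE 0.0858, adjusted p = 0.0185). The call was lost without the second wild-type array (adjusted p = 0.0778), the first Dicer-deficient array (0.15) or the second (0.119). The other 4 measured genes of the cluster did not pass: Mir500 differed by 0.14, Mir501 by 0.07, Mir532 by -0.07 and Mir188 by -0.19. Clcn5 itself gave -0.18 (adjusted p = 0.335).

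Mir27a is the middle gene of the Mir23a, Mir27a and Mir24-2 cluster of chromosome 8 and is best known from fat and blood cell differentiation. Its miR-27a-3p occupies chr8:84208727-84208747. It was the only called member above the array median, with 5.86, 5.94 and 5.74 in wild type (mean 5.85 ± 0.101, SD, n = 3) against 6.20 and 6.12 (mean 6.16 ± 0.0566, SD, n = 2). The groups did not overlap, and the difference was 0.31 (SE 0.0887, adjusted p = 0.0498). Its neighbours differed in the same direction without passing the test: Mir24-2 by 0.21 (adjusted p = 0.32) and Mir23a by 0.08 (adjusted p = 0.789). Leaving out any array ended the call for Mir27a, with adjusted p from 0.0819 to 0.264.

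Mir363 lies on the X chromosome in the cluster that runs to Mir106a, a relative of the miR-17 cluster, and miR-363-3p occupies chrX:52741697-52741718 on the minus strand. The signal was 3.69, 3.53 and 3.71 in wild type (mean 3.64 ± 0.0987, SD, n = 3) and 4.09 and 3.89 without Dicer (mean 3.99 ± 0.141, SD, n = 2). All of these values are below the lower quartile of their arrays, and the groups did not overlap (0.35, SE 0.0982, adjusted p = 0.0498). The call was lost without any single array, with adjusted p from 0.0769 to 0.303. The other measured genes with the AUUGCAC seed printed above differed by 0.00 (Mir92-2), -0.005 (Mir25 and Mir32) and 0.06 (Mir92b).

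The number of called members changed with the arrays used. Without the third wild-type array 1 member, Mir382, was called lower (limma adjusted p = 0.0404). The number called higher was 4 with all arrays, 2 without the first wild-type array, 1 without the second and 6 without the third. It was 0 without the first Dicer-deficient array and 1 without the second.

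**Figure D3:**
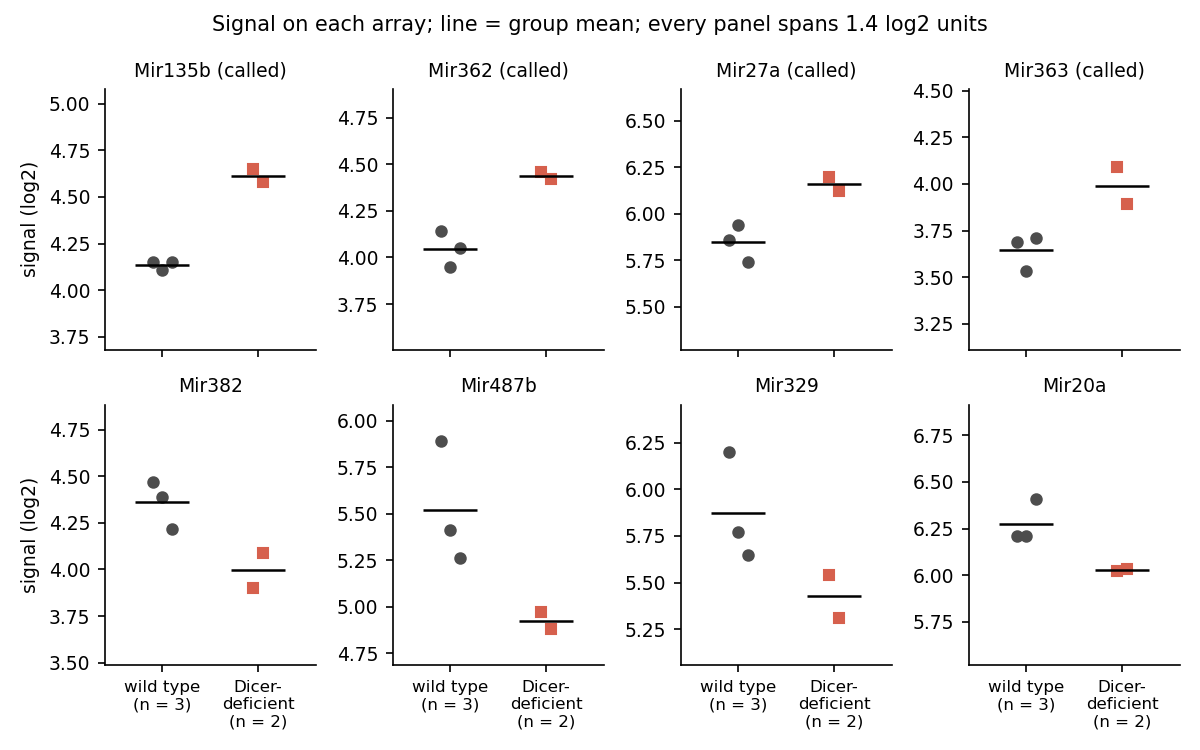
Log2 signal (vertical axis, each panel spanning 1.4 units) on each of 3 wild-type arrays (grey circles) and 2 Dicer-deficient arrays (red squares) for the 4 called members (top) and 4 members that did not pass the test (bottom); lines are group means. In all 8 panels the groups do not overlap, and the first wild-type array is the highest in Mir487b (5.89) and Mir329 (6.20).

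Below 0, the 2 members nearest to the threshold, Mir382 and Mir487b, lay in one stretch of chromosome 12, the imprinted Dlk1-Dio3 region, whose microRNAs are made from the maternal chromosome and are prominent in brain. Mir382 had 4.47, 4.39 and 4.22 in wild type and 3.90 and 4.09 without Dicer, a difference of -0.36 (SE 0.104, adjusted p = 0.0513). Mir487b had 5.89, 5.41 and 5.26 against 4.97 and 4.88, the lowest difference of all members at -0.60 (SE 0.172, adjusted p = 0.0534). The groups of both genes were apart, and neither passed. Mir329 had 6.20, 5.77 and 5.65 against 5.54 and 5.31 (-0.45, SE 0.163, adjusted p = 0.115), and Mir300, from the same stretch, had 4.25, 3.85 and 3.95 against 3.74 and 3.65 (-0.32, SE 0.124, adjusted p = 0.134). The first wild-type array was the highest of the 5 for these 4 genes. Without it the difference was -0.41 for Mir487b (adjusted p = 0.0523) and -0.29 for Mir329 (adjusted p = 0.19).

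The region holds 2 of the 11 clusters found (at least 3 members on one strand with neighbouring starts at most 10 kb apart). The Mir379 to Mir369 cluster has 30 measured members, none called by limma and 4 with an unadjusted p under 0.05. These shares were 1.36% and 5.76% over all members, and 17.1% and 27.8% over all genes. On all 5 arrays 12 of the 30 lay below the lower quartile and 5 above the median. The difference was below 0 for 23 of the 30 (76.7%), above 0 for 6 and 0 for 1. Of all genes 47.8% lay below 0. For 9 (30%) both Dicer-deficient values lay below the wild-type range, beside 19.9% of all genes. The median difference was -0.11, with members from -0.60 (Mir487b) to 0.15 (Mir541). Relative to each gene's mean over the wild-type arrays, the cluster's median was 0.013, -0.047 and 0.002 in the wild-type arrays. It was -0.11 and -0.108 in the Dicer-deficient arrays. Leaving out any 1 array kept the cluster's median between -0.125 and -0.098. The neighbouring Mir337 to Mir136 cluster, 7 members that include genes opposite Rtl1, had a median of -0.05 and ran from -0.22 (Mir127) to 0.31 (Mir431, adjusted p = 0.172).

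Longer transcripts of the same region were measured too. Meg3, a maternally expressed noncoding RNA, had 9.34, 9.23 and 9.18 against 8.23 and 8.14 (adjusted p = 0.000285), and Rian, which carries Mir341 and Mir370, fell by 0.72 (adjusted p = 0.000844). Dio3, a thyroid hormone deiodinase gene, gave -1.07 (adjusted p = 0.0114). Dlk1 (0.12, adjusted p = 0.684) and Rtl1 (0.05, adjusted p = 0.859) were not called. The 2 microRNA genes within Rian differed by -0.08 (Mir341, adjusted p = 0.799) and -0.04 (Mir370, adjusted p = 0.815). Outside both clusters, the other 258 members had a median of 0.01, with 22 above and 15 below the wild-type range. Of all genes 20% lay above it and 19.9% below.

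**Figure D4:**
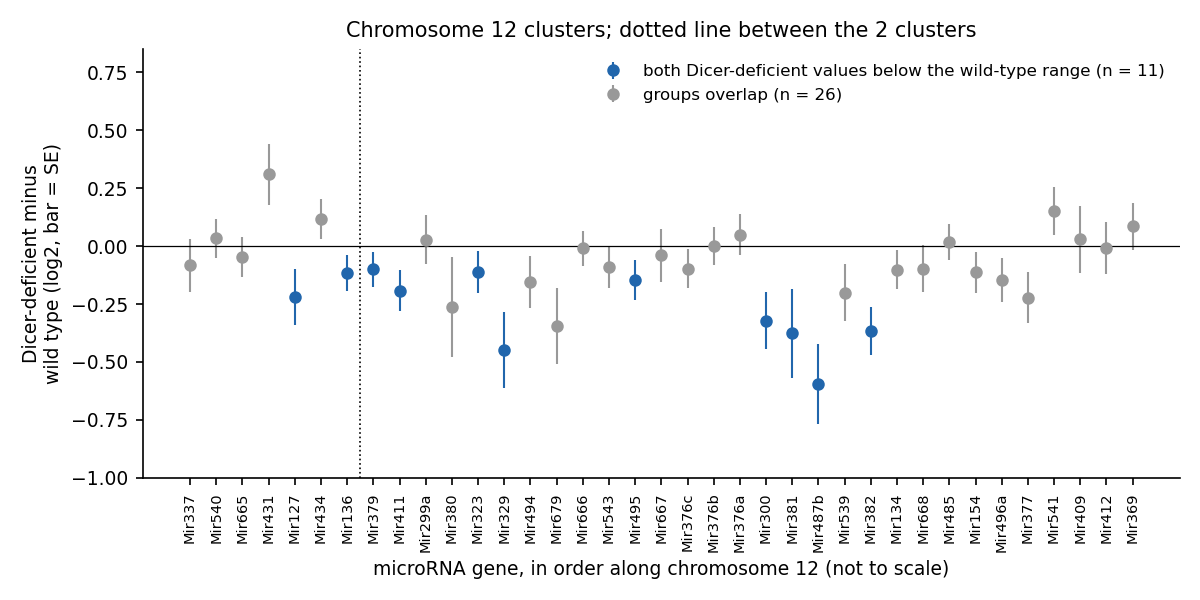
Log2 difference with its standard error (vertical axis) for the 37 measured microRNA genes of both chromosome 12 clusters in genomic order (horizontal axis, not to scale); blue marks 11 genes whose Dicer-deficient values both lay below the wild-type range, grey the 26 that overlap. Most points of the right-hand cluster lie below 0, down to -0.60 for Mir487b.

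The miR-17 family drives proliferation, and its members share the AAAGUGC seed printed above, close to that of the ES cell families miR-290 and miR-302. In the Mir17 to Mir19b-1 cluster of chromosome 14 the 5 measured genes had a median of -0.03, which turned to 0.04 without the first Dicer-deficient array. Mir20a was the lowest, at 6.21, 6.21 and 6.41 against 6.02 and 6.03 (-0.25, SE 0.0907, adjusted p = 0.112), with no overlap between groups. Its neighbours Mir17 (0.02), Mir18 (-0.02), Mir19a (-0.03) and Mir19b-1 (-0.15) did not pass either. The longer transcript of this cluster, Mir17hg, gave 5.05, 4.89 and 5.11 against 5.08 and 5.32 (0.18, adjusted p = 0.342). The X-linked relative of the cluster had a median of 0.04, and apart from Mir363 its 4 genes ran from 0.00 to 0.16 (Mir20b). Mir25, Mir93 and Mir106b, which lie in the replication gene Mcm7, differed by -0.005, 0.13 and 0.02, and Mcm7 by 0.12 (adjusted p = 0.444).

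The let-7 family restrains proliferation and marks differentiation, and all of its 10 measured genes, Mir98 included, were read without a call (none at an unadjusted p under 0.05 either). Among all members 1.36% were called and 5.76% had such a p, beside 17.1% and 27.8% of all genes. A lack of calls among 10 members thus does not set the family apart. The median difference of the let-7 genes was 0.09, and the lowest adjusted p was 0.267. Of the 10, 7 lay above 0, as did 51.8% of all genes. Mirlet7i had 5.61, 5.98 and 5.74 in wild type and 6.04 and 5.91 without Dicer, the largest difference of the family (0.20, SE 0.118, adjusted p = 0.358), and its groups overlap. Mirlet7a-1 had 4.34, 4.37 and 4.44 against 4.48 and 4.61, which do not overlap (0.16, SE 0.0825, adjusted p = 0.267). Mirlet7f-1, its neighbour on chromosome 13, did not overlap either (3.84, 3.75 and 3.83 against 3.94 and 3.91). At the other end Mirlet7g stood at -0.05.

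The groups of microRNA genes given here, tied mostly to differentiated cells, held no called member. The 7 measured muscle genes (of Mir1a, Mir133a, Mir206, Mir208a and Mir499) lay below the lower quartile on every array, with a median of 0.06. The 10 neural genes had a median of 0.03: Mir9-1 had 3.96, 4.10 and 4.08 against 4.14 and 4.31 (0.18, adjusted p = 0.263), Mir9-3 and Mir219a-2 also had both Dicer-deficient values above wild type, and Mir124a-3 had both below (-0.13, adjusted p = 0.442). The 5 epithelial genes of the miR-200 family and Mir205 had a median of 0.02, from -0.20 (Mir200b) to 0.24 (Mir200c, adjusted p = 0.482). The 5 genes of the miR-34 and miR-449 family, of which miR-34 is induced by p53, had a median of -0.07, with Mir34a at 4.03, 3.82 and 3.72 against 3.77 and 3.56 (-0.19, adjusted p = 0.362). The 6 genes with the miR-15 seed, brakes of the cell cycle, ran from -0.19 (Mir15a) to 0.14 (Mir16-1) with a median of -0.05. These groups were drawn up after the values were seen. In all of them limma called 0 members, beside 1.36% of all members and 17.1% of all genes. With so few members called anywhere, this does not set the groups apart. None held a gene with an unadjusted p under 0.05, which follows from the sorting and is not a result. Groups that did hold a gene with such a p are given separately below.

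A pair of groups held 1 gene each with an unadjusted p under 0.05. Mir222, known from vascular smooth muscle and proliferating cells, had 3.68, 3.69 and 3.75 against 4.11 and 3.82 (0.26, adjusted p = 0.141), while its neighbour Mir221 gave 0.09. Mir181b-2, of a family active in lymphocytes, had 3.52, 3.67 and 4.02 against 4.09 and 4.12 (0.37, SE 0.141, adjusted p = 0.132), and the other 5 measured miR-181 genes ran from -0.09 to 0.17. The wild-type values of Mir181b-2 spread over more than its difference.

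The 10 members with the brightest probe sets had no call. Above the median signal 1.3% of the members and 27.9% of all genes were called. The lack of calls thus does not set these 10 apart from the other members above the median. Mir692-1 had a mean of 9.83, with wild-type values between 9.77 and 10.06 and Dicer-deficient values of 9.71 and 9.63 (-0.27, SE 0.104, adjusted p = 0.13). Mir6516 had 8.52, 8.47 and 8.69 against 8.73 and 8.61 (0.11), and Mir320, a microRNA made without Drosha, had 8.28, 8.26 and 8.58 against 8.50 and 8.50 (0.13). The groups did not overlap for Mir692-1, nor for Mir346, which had 7.92, 7.66 and 7.91 against 7.99 and 7.95 (0.14, adjusted p = 0.463). The others, Mir341, Mir187, Mir598, Mir328, Mir181d and Mir25, differed by between -0.14 (Mir598) and 0.02 (Mir187 and Mir328), with groups that overlap.

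Seeds grouped the members by the targets they could pair with, and 19 seeds were shared by 3 or more members (68 members in all). The median difference of such a seed group lay between -0.11 and 0.16. The only called gene among these 68 members was Mir363, where 1.36% of all members and 17.1% of all genes were called. Mir362 and Mir329, whose printed 3p products share ACACACC, differed by 0.39 and -0.45. The let-7 seed GAGGUAG had a median of 0.10 over 9 genes, and AAAGUGC a median of 0.02 over 6.

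Hosts and the microRNA genes within them were set side by side. A host was a named gene that holds the whole microRNA gene on the same strand, and 96 members had one among 75 measured hosts. Limma called 18 hosts (24%, beside 17.1% of all genes and 27.9% of those above the median signal), 13 higher and 5 lower, and 57 were not called. The count was 9 without the second wild-type array, 3 without the first Dicer-deficient array and 2 without the second. None of the 21 members inside a called host was called or had an unadjusted p under 0.05, and their median difference was -0.01. Over all members these shares were 1.36% and 5.76%, so a lack of calls among 21 members does not set them apart. The difference between a host and its microRNA gene was not tested, and the probe sets of hosts were brighter (median signal 6.59, beside 4.32 for the members within hosts).

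Examples follow from the called hosts. The reverse was seen in Mir135b and Mir362, which were called inside hosts that were not. Mest, an imprinted gene, had 9.27, 9.33 and 9.51 in wild type and 10.11 and 10.37 without Dicer (0.87, adjusted p = 0.00199), and Mir335 within it had 4.75, 4.79 and 4.68 against 4.84 and 4.70 (0.03). The pantothenate kinase genes Pank1 and Pank3 rose by 0.83 (adjusted p = 0.00421) and 0.74 (adjusted p = 0.00211), and the microRNA genes they carry, Mir107 and Mir103-1, stood at -0.05 and -0.01. Nexmif had 6.46, 5.93 and 6.05 against 7.09 and 7.01 (0.90, adjusted p = 0.00606), and Mir672 within it 3.51, 3.52 and 3.51 against 3.49 and 3.51. In each of these pairs the host's groups were apart and those of the microRNA gene overlapped. Among hosts that fell, Copz1, a coatomer subunit gene, gave -0.59 (adjusted p = 0.00764) with Mir148b at -0.13, and Egfl7, an endothelial secreted factor gene, gave -0.57 (adjusted p = 0.00579) with Mir126a at -0.04. For Mir148b and Mir126a both Dicer-deficient values lay below the wild-type range, without a call.

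**Figure D5:**
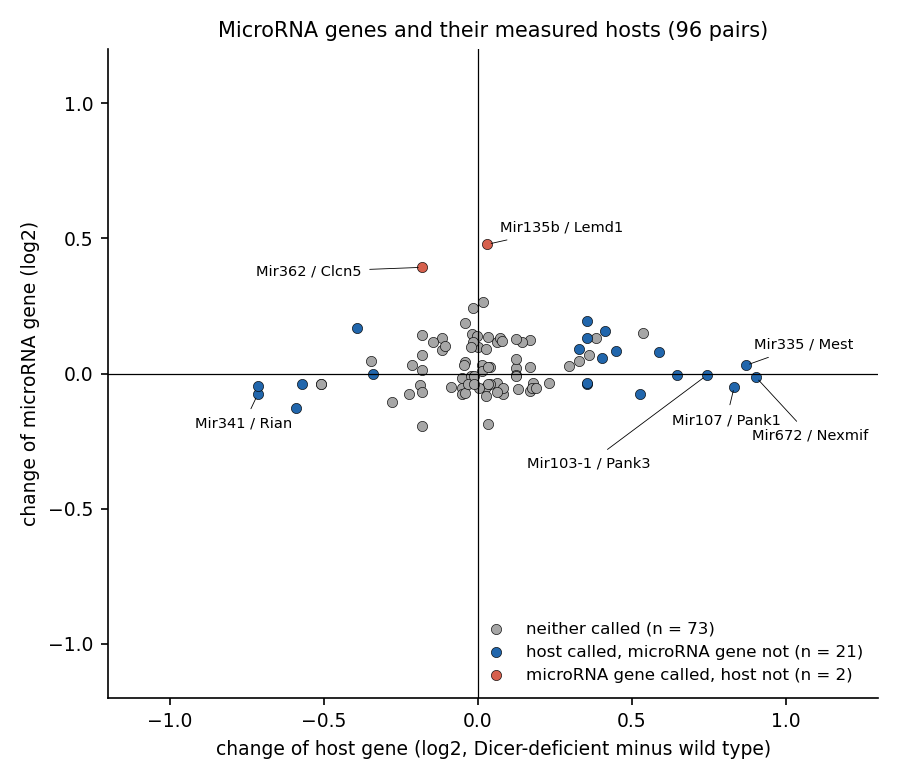
Log2 difference (Dicer-deficient minus wild type) of the microRNA gene (vertical axis) against that of its host (horizontal axis) for 96 pairs; grey marks pairs with neither called, blue the 21 with the host called, red the 2 with the microRNA gene called. The blue points spread along the horizontal axis, from -0.72 (Rian) to 0.90 (Nexmif), and stay between -0.13 and 0.20 on the vertical axis.

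Genes of microRNA production and action are given for comparison. Of 22 listed, limma called 7 (31.8%, beside 17.1% of all genes and 27.9% of those above the median signal, where 20 of the 22 lay on every array), and 3 with either Dicer-deficient array left out. The hairpin-cutting genes Drosha (-0.01), Dgcr8 (0.01) and the exporter Xpo5 (-0.03) were not called. The silencing genes Ago1 (0.69), Tnrc6a (1.19) and Tnrc6b (0.69) rose, while Ago2 (-0.27, adjusted p = 0.0515), Ago3 (0.26, adjusted p = 0.0747), Ago4 (0.19) and Tnrc6c (-0.01) were not called. The let-7 inhibitor Lin28a fell by 3.03 (adjusted p = 6.08e-06) and its relative Lin28b rose by 0.61 (adjusted p = 0.00632). The let-7 target Trim71 fell by 0.35 (adjusted p = 0.0474). The let-7 genes themselves had no call, where 1.36% of all members were called.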

How the data were processed

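Values were taken from the deposited table of log2 signals, 1 per probe set and array; the authors' background correction, normalization and summary method are not given in the sources used here, and log2 was inferred from the range of the deposited values. Of 35556 probe sets 21789 had 1 gene symbol in the platform annotation, 1621 several and 12146 none; 19938 genes were tested. The members and all lists were chosen with earlier results of these data known.

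Differences (Dicer-deficient minus wild type) were fitted with limma 3.58.1 in R 4.3.3 (lmFit and eBayes, 3 residual and 4.55 prior degrees of freedom), adjusted by Benjamini-Hochberg over all genes, and checked on simulated data. The number of arrays limits the precision. Early G1 arrays are not analysed here.

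Named members are those called, those with p under 0.01, the 10 with the highest mean, the 10 largest differences each way, the let-7, miR-17, miR-106a and miR-25 clusters and their hosts; others were chosen after their values were seen. Host and cluster positions came from the RefSeq gene table. That table gives no strand, so strands came from the sequence tables (270 of 295 members). Replicate numbers gave no sign of a pairing: deviations of same-numbered arrays correlated at 0.049 and 0.005, over 2 shared numbers. The deviations of the 2 Dicer-deficient arrays mirror each other, so these values cannot decide whether the arrays were paired. Alternatives covered normalization, centring, dim genes, variance model, array weights, the replicate block, probe sets and leaving out each array.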

Additional observations from a re-analysis of the deposited data

How the results depend on the processing

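The count of members called higher, 4, became 1 among genes above the median of all probe sets, 7 with array weights, 1 with all probe sets adjusted together and 0 to 6 with 1 array left out. The count called lower, 0 at first, was 1 with each array centred on its median, 2 among genes above the lower quartile, 2 with an intensity trend, 2 with array weights and 0 to 1 with 1 array left out. These were Mir487b or Mir382. Members with groups apart, 48, numbered 22 among genes above the lower quartile (153 members tested), 10 above the median (77 tested) and 73 to 137 with 1 array left out, where fewer arrays must separate. Hosts called, 18, were 10 with all probe sets and 2 to 14 with 1 array left out. Pathway genes called, 7, were 11 with array weights and 3 to 9 with 1 array left out. The median difference of the members stayed between -0.01 and 0.03 with 1 array left out.

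With the replicate number as a block, which the arrays' correlations do not support as a pairing, no member was called, 4 hosts and 4 pathway genes were, and the median difference was 0.03; fewer residual degrees of freedom remain in that fit. No called value reversed its direction. Of the 11 cluster medians 6 turned sign under at least 1 alternative: among genes above the median of all probe sets Mir500 to Mir532 went from 0.07 to -0.193 and Mir337 to Mir136 from -0.047 to 0.033, and without the first Dicer-deficient array Mir17 to Mir19b-1 went from -0.028 to 0.037. The Mir379 to Mir369 median kept its sign in every alternative. Of the single genes followed 13 turned sign, none of them called and none over 0.08 in size. Of 30 called genes followed over 15 alternatives, 5 stayed called with each array left out. Probe sets without a detection call limit what the dim members can show.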

Other observations

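By chromosome, the members of chromosome 12 had a median log2 difference of -0.09 over 47 genes, while all 652 measured genes of that chromosome had a median of 0.03. Of the 47, 37 are the genes of both clusters described above, with a median of -0.1, so this is not a separate observation. The 39 members of the X chromosome, which include Mir362 and Mir363, had a median of -0.01 beside 0.02 for all genes there. The 13 members of chromosome 14 had the same median as all its genes, -0.02. Members linked to blood cells (6 genes) and to the Hox clusters (6 genes) had medians of 0.04 and -0.04. Limma called none of either, with none at an unadjusted p under 0.05. These shares were 1.36% and 5.76% over all members, and 17.1% and 27.8% over all genes. A lack of calls among so few members does not set them apart. Among the Hox cluster genes Mir196a-1 had 5.18, 5.56 and 4.89 in wild type and 4.95 and 4.86 without Dicer (-0.30, adjusted p = 0.336), and its groups overlap.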
